A study of Mus musculus with 6 samples.

Results

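CpGs that were more methylated in mouse iPSCs induced with chemicals (C-iPSCs) than in iPSCs induced with transcription factors (4F-iPSCs) are described here, with mouse embryonic stem cells (mESCs) beside them. They were chosen by the levels of all 6 libraries. For each autosomal CpG with at least 10 reads summed over the 2 replicates of every cell type, the level is the methylated reads divided by all reads. A CpG was taken when its C-iPSC level was more than 0.3 above its 4F-iPSC level, and when in addition its 4F-iPSC level was at most 0.2 below the mESC level or its C-iPSC level was above the mESC level. The rule took 389 of the 1073684 compared CpGs, or 0.0362%. Another 90 CpGs passed the difference of 0.3 and failed the mESC part. The opposite difference, 4F-iPSCs higher by more than 0.3, was found at 21418 CpGs.

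C-iPSCs were made from OG2-MEFs, mouse embryonic fibroblasts, with cocktails of small molecules, and 4F-iPSCs from OG2-MEFs infected with retroviruses for Oct4, Sox2, Klf4, and c-Myc. The fibroblasts came from mice of 3 strains (129S4/SvJaeJ, C57BL/6J, and CBA/CaJ), so the genetic background of the iPSCs is not a single inbred strain. The mESCs were of the E14 line. All cells were male by the labels, the iPSCs at passages 5 to 10 and the mESCs at passages 20 to 30, and all were grown with serum, LIF, and 2i (CHIR99021 and PD0325901), with feeder cells removed before collection. Each cell type had 2 RRBS libraries without treatment. No source states whether replicates came from separate lines or cultures, so their spread may be technical, and an exact permutation test of 2 against 2 libraries could not go below p = 0.33.

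DNA methylation in mammals is found mainly at CpGs, where a maintenance methyltransferase copies it at each cell division and TET enzymes help to remove it. Pluripotent cells kept with 2i inhibitors carry less of it than fibroblasts do, and CpG-rich promoters are mostly free of it, whereas repeats and the DNA between genes are often methylated. In RRBS, MspI cuts DNA at CCGG, and bisulfite then turns unmethylated cytosines of short fragments into uracil, so that only methylated ones are still sequenced as C.

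Stretches that carry clear differences are shown first, because each holds several chosen CpGs read at depth or lies at the promoter of a named gene. They are the plus strand of GRCm38, which is mm10, as given by RefSeq. The CG of every chosen CpG is in capitals, and lower-case CpGs were not chosen. Each group is shown whole.
Chromosome 9, nearest start Gm47185, chr9:124441935-124442191: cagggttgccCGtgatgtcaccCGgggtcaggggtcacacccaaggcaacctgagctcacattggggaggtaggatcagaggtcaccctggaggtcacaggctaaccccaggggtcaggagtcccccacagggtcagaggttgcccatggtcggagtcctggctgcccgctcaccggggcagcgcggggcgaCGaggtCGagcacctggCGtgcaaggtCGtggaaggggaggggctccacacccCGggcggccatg
Rest exon, chr5:77268517-77268615: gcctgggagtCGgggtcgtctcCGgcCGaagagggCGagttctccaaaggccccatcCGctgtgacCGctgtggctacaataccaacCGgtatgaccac
Prpf39 promoter, chr12:65037041-65037189: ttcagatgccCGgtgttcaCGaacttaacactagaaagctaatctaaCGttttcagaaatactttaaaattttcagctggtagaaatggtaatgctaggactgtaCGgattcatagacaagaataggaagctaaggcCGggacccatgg
Cyb5b promoter, chr8:107150731-107150770: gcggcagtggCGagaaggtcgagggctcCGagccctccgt
The stretch near Gm47185 had 14 CpGs in 257 bases and a GC content of 68.1%, and the Prpf39 stretch had 5 CpGs in 149 bases and 40.9%. These stretches thus differed in composition, which was not computed over all chosen CpGs.

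Libraries held between 53694199 and 96534037 reads on CpGs, with a median between 31 and 54 reads per CpG. C-iPSC replicate 2 was higher than replicate 1 across the genome, with mean levels of 30.1% and 25.9% over the compared CpGs, against 32.5% and 33.9% in the 4F-iPSC libraries and 20.4% and 22.4% in the mESC libraries. Promoters of Pou5f1, Nanog, Zfp42, and Dppa5a, which are methylated in fibroblasts, were at 0% to 20.8% in the 6 libraries. They had 7, 2, 7, and 1 compared CpGs. None held a chosen CpG, from which nothing is read at such numbers. Dppa3 and Tdgf1 had no compared promoter CpG. Of the fibroblast genes, Thy1, Col1a2, and Twist2 had 3, 3, and 68 compared promoter CpGs, at 5.96% to 20.9%. Col1a1 and Prrx1 had none.

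Since the levels chose the CpGs, the levels are a description. The median level was 64.3% in C-iPSCs, with quartiles of 53.0% and 77.3%. In 4F-iPSCs the median was 23.1%, with quartiles of 10.8% and 37.2%. In mESCs it was 44.8%, with quartiles of 29.5% and 58.3%. The typical chosen CpG was therefore partly methylated in all 3 cell types rather than fully methylated in C-iPSCs and free of methylation in 4F-iPSCs. Only 80 reached 80% in C-iPSCs, and 91 were below 10% in 4F-iPSCs. At 21 of these, no methylated read was seen in 4F-iPSCs, but 4F-iPSC depth there had a median of 17 reads and a range of 11 to 225, which allows a level of up to 1.33% at the deepest and 27.3% at the shallowest, taking 3 reads of the total as the limit that a count of 0 allows.

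Single libraries showed the same order. The mean over the chosen CpGs with at least 5 reads was 62.4% and 67.2% in the C-iPSC libraries, 25% and 25.6% in the 4F-iPSC libraries, and 42.0% and 46.1% in the mESC libraries. The group means were 64.8% ± 3.37 in C-iPSCs, 25.3% ± 0.426 in the 4F-iPSCs, and 44.0% ± 2.9 in mESCs (SD, n = 2). C-iPSC replicate 2 was the higher of its pair at 213 of the chosen CpGs and replicate 1 at 82, and over all compared CpGs replicate 2 was higher at 55.1%. At 304 chosen CpGs, all 4 iPSC libraries had at least 5 reads. There, both C-iPSC libraries were above both 4F-iPSC libraries at 298, against 3.56% of 1042298 compared CpGs with the same reads, a separation that the rule itself brings about, so nothing is read from it. The lower C-iPSC library was a median of 26.8 percentage points above the higher 4F-iPSC library, and at 21 of the 304 the C-iPSC libraries were more than 0.3 apart from each other. The remaining 85 chosen CpGs had fewer than 5 reads in at least 1 iPSC library.

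**Figure D1:**
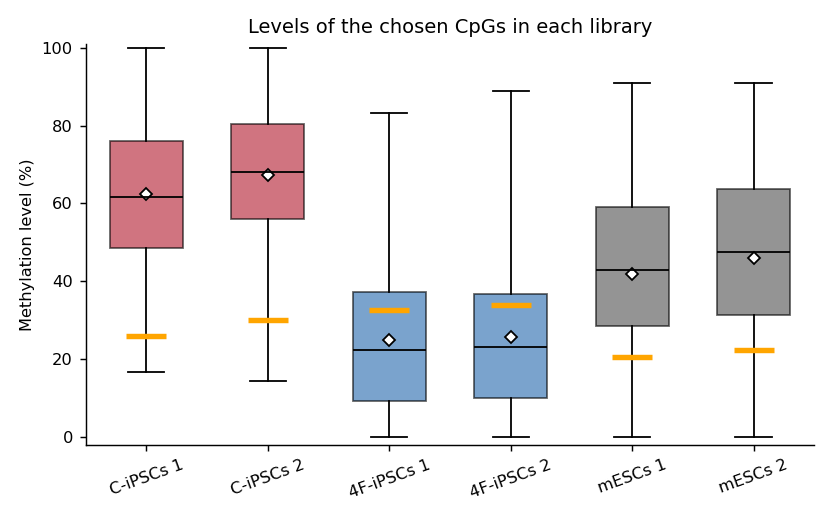
Methylation level (%) of the chosen CpGs in each of the 6 libraries, for CpGs with at least 5 reads in that library. Boxes span the quartiles with the median as a line, whiskers reach the lowest and highest CpG, diamonds are means, and orange bars are means over all compared CpGs. Means over the chosen CpGs were 62.4% and 67.2% in C-iPSCs and 25% and 25.6% in the 4F-iPSCs, above and below the orange bars.

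Most differences were near the threshold. The median was 36.2 percentage points, 118 CpGs differed by 30 to 33.3 percentage points, 143 by up to 40, 75 by up to 50, and 53 by more. The 5 CpGs just inside the threshold differed by at most 30.163 percentage points and the 5 just outside by at least 30.0. Between 0.3 and 0.32 lay 75 chosen CpGs, and 137 compared CpGs lay between 0.28 and 0.3. The CpGs below the threshold were counted without the mESC part of the rule. The count therefore turned on where the line was drawn, and not on a gap in the values.

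The mESC level lay between both iPSC levels at 330 of the chosen CpGs, below the 4F-iPSC level at 59, and above the C-iPSC level at 0. The last is fixed by the rule, whose mESC part in effect keeps the CpGs with C-iPSCs above mESCs. It was nearer to C-iPSCs at 210 and nearer to 4F-iPSCs at 179. C-iPSCs exceeded mESCs by more than 0.3 at 110, and 4F-iPSCs were more than 0.2 below mESCs at 191. Since the rule used the mESC level, this split is a description. At the 90 CpGs that failed the mESC part, medians were 55.5% in C-iPSCs, 15.7% in the 4F-iPSCs, and 66.7% in mESCs.

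On the same contrast, strong calls were made as the study's methods describe, by a two-sided Fisher's exact test (p under 0.05, not adjusted) where the levels were more than 33.3 percentage points apart. They comprised 302 CpGs higher in C-iPSCs, or 0.0281% of those compared. Of the 389 chosen CpGs, 244 were among them, and 271 passed the difference alone. A quasi-binomial model with limma's dispersion shrinkage and Benjamini-Hochberg adjustment, which treats the libraries as replicates, called 155, or 0.0144% of the 1072732 it could test. It called 117 of the 385 chosen CpGs it could test. The rule used this contrast, so these counts say how the chosen CpGs were measured and are not independent support.

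Shallow CpGs were overrepresented. In the cell type with the fewest reads, 156 of the chosen CpGs, or 40.1%, had under 20 reads, against 6.72% of all compared CpGs. Per 100000 compared CpGs, the rule took 285 at 10 to 14 reads and 134 at 15 to 19 reads. It took 52.0 at 20 to 29 reads, 25.4 at 30 to 49 reads, 18.3 at 50 to 99 reads, and 22.5 from 100 reads upward. The share thus fell steeply from the shallowest CpGs to those at 50 to 99 reads and did not fall further above that. The opposite difference was 27.7 times as frequent as the chosen one at 10 to 14 reads, 102 times at 30 to 49 reads, and 52.0 times from 100 reads upward. The opposite CpGs had no mESC condition to pass, whereas that condition left out 90 CpGs with C-iPSCs higher. These ratios therefore compare sets of unlike definition. At the 106 chosen CpGs with at least 100 reads in every cell type, median levels were 61.3% in C-iPSCs, 18.8% in the 4F-iPSCs, and 47.8% in mESCs.

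**Figure D2:**
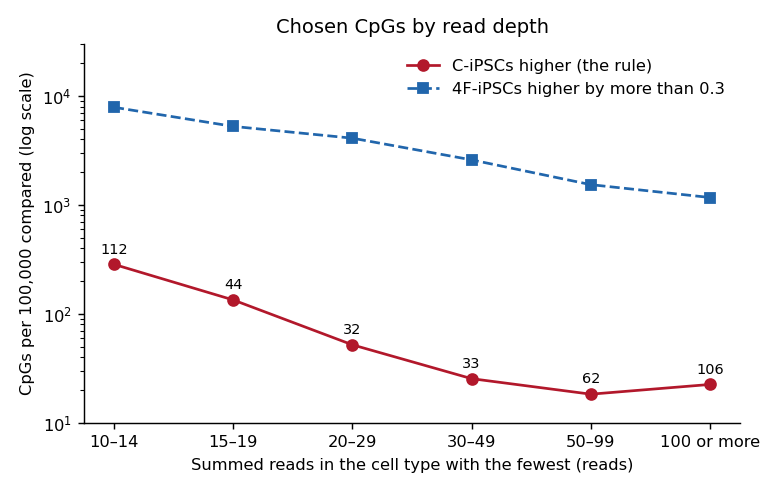
CpGs per 100000 compared CpGs (log scale) against the summed reads in the cell type with the fewest, for the chosen CpGs (circles, with their number above each) and for CpGs higher in 4F-iPSCs by more than 0.3 (squares). The chosen CpGs went from 285 at 10 to 14 reads to 18.3 at 50 to 99 reads and 22.5 above. Only the chosen CpGs had to pass the mESC part of the rule.

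The same measure in libraries that had no part in the choice gave unequal answers. The rule on the 3 libraries numbered 1 took 320 CpGs, 257 of which had at least 10 reads in the C-iPSC and 4F-iPSC libraries numbered 2. Their median difference was 35.8 percentage points in the libraries that chose them and 25 in the others, where C-iPSCs were higher at 197, or 76.7% (95% Wilson interval 71.1% to 81.4%), against 23.5% of all CpGs with these reads. With at least 20 reads, 151 of 163 were higher in C-iPSCs, or 92.6%. In the other direction, the rule on the libraries numbered 2 took 1194 CpGs, and the libraries numbered 1 gave a median difference of -2.91 percentage points. C-iPSCs were higher there at 507 of 1172, or 43.3% (40.4% to 46.1%), against 19% of all CpGs with these reads. With at least 20 reads it was 346 of 611, or 56.6%. The shares of all CpGs with these reads are no matched reference, since typical levels there were far lower. In the libraries numbered 1, all such CpGs had medians of 5.56% (C-iPSCs) and 6.83% (4F-iPSCs), against 40.0% and 41.9% at the 1172. Of CpGs taken for the opposite difference, 94.7% stayed higher in 4F-iPSCs in the libraries numbered 1. In the libraries numbered 2, that share was 87.5%. Each of these compares 1 library with 1 library, without a test, and neighboring CpGs share reads, so the intervals cover counting error only. By the difference of 0.3 that the rule asks for, 109 of the 257 CpGs (42.4%) passed in the libraries numbered 2, and 100 of the 1172 (8.53%) in the libraries numbered 1. Of all CpGs with these reads, 0.139% and 0.033% passed it. Of the 320 and the 1194 CpGs, 148 and 164 belong to the 389.

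**Figure D3:**
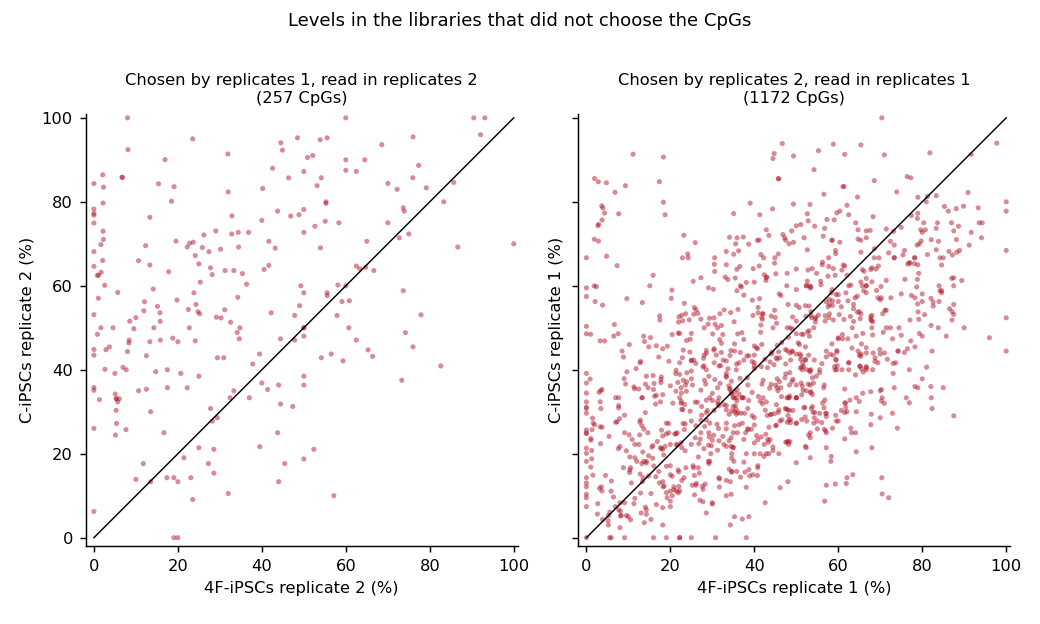
C-iPSC level against 4F-iPSC level (%) in the replicate that did not choose the CpGs, 1 point per CpG, with the line of equal levels. On the left, 197 of 257 CpGs lie above the line, and on the right 507 of 1172.

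Leaving out single libraries moved the list more than its length shows. Without C-iPSC replicate 1, 1029 CpGs met the rule, of which 224 belonged to the 389. Without C-iPSC replicate 2, 296 met it, of which 205 belonged to the 389. Only 80 of the 389 met the rule whichever of the 6 libraries was left out. Of these 80, 51 lay in groups of at least 3 neighbors and 21 stood alone. Leaving out either library of a cell type asks for 10 reads in the other, so all 80 had at least 20 reads by construction. Their median levels were 68.3% in C-iPSCs, 15.9% in the 4F-iPSCs, and 52.8% in mESCs. Most of the 25 chosen CpGs of a single chromosome 9 locus, described below with its uneven depth, are among the 51. The counts and medians of the 80 therefore rest in part on that locus.

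The chosen CpGs lay away from transcription starts. Placed in the first class that fits, 51 were within 1 kb of a start (13.1%), 21 in other exons (5.40%), 103 in introns (26.5%), and 214 between genes (55.0%). Of all compared CpGs, 52.8% lay in promoters and 19.7% between genes. CpGs with the opposite difference had 10.2% in promoters and 47.6% between genes, so in this respect the chosen CpGs were close to the opposite ones. The median distance to a start was 14322 bp, against 743 bp over all compared CpGs. Soft-masked sequence, which is the repeats and low-complexity DNA of the reference, held 183 of the chosen CpGs, or 47.0%, against 14% of all and 40.4% of the opposite CpGs. The 32 bases around the CpG were found more than once in the genome for 35.7%, against 8.31% and 28%. Reads from such copies may be placed wrongly, and the part of this in the differences was not tested. An MspI site held 41.6% of the chosen CpGs and 33.9% of all compared CpGs. By chromosome, the number per 100000 compared CpGs ran from 11.8 on chromosome 3 to 71.8 on chromosome 9, where 25 of 41 came from a single locus.

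Of the chosen CpGs, 354 had another compared CpG within 100 bp, and at 210 of them, or 59.3%, the neighbors' mean was more than 0.1 higher in C-iPSCs. Some of these neighbors were themselves chosen, which fixes their difference. With the chosen CpGs left out of the neighbors, 176 of 329, or 53.5%, had such a mean, against 0.315% of all compared CpGs with a neighbor. With at least 20 reads it was 148 of 207. Around CpGs with the opposite difference, and with those CpGs left out of the neighbors, the share in the opposite direction was 76.7%. Neighbors share reads with the chosen CpG, so these shares are a description. On single strands, 118 chosen CpGs had at least 10 reads on each strand in both iPSC types, and C-iPSCs were higher on both strands at 115 and by more than 0.3 on both at 69. The rule summed these same reads, which largely brings about this agreement, so nothing is read from it. Reads of a strand also share fragments with their neighbors, so these are not independent measurements.

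When CpGs at most 300 bp apart were joined, 214 stood alone, 27 pairs formed, and 121 lay in 25 groups of at least 3. Among the lone CpGs, 128 had under 20 reads in some cell type, against 13 of the 121 in groups. The levels of a group were computed from its summed reads in each library. Both C-iPSC libraries were above both 4F-iPSC libraries in 24 of the 25 groups, and the mESC mean was nearer to C-iPSCs in 19. The groups consist of CpGs chosen on these levels, so the rule itself brings about this separation and nothing is read from it. Relative depth, the reads of a cell type as a share of its total, was between 0.5 and 2 times as high in C-iPSCs as in 4F-iPSCs in 20 groups, above 2 times in 3, and under 0.5 times in 2. In 9 groups no chosen CpG was soft-masked and all 32-base sequences were unique.

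The longest group lay on chromosome 9, between genes. Its 20 chosen CpGs were at 75.8% and 75.3% in the C-iPSC libraries, at 4.91% and 3.87% in the 4F-iPSC libraries, and at 66.4% and 65.7% in the mESC libraries. Single CpGs were between 56.3% and 92.0% in C-iPSCs and between 0.995% and 25% in the 4F-iPSCs, so no CpG of the group overlapped between them. The largest difference among the 389, 84.0 percentage points, was here. The quasi-binomial model called all 20, against 0.0144% of all CpGs it could test. These CpGs were chosen on this difference, so nothing is read from the separation or the calls. A second group of 5 lay near it and was at 62.1% and 65.6% in C-iPSCs, 3.54% and 5.29% in the 4F-iPSCs, and 41.2% and 41.0% in mESCs.

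Depth at this locus was as uneven as the levels. The longest group had a mean of 1926 summed reads per CpG in C-iPSCs, 149 in the 4F-iPSCs, and 1105 in mESCs. Relative to the totals, this was 13.7 times as deep in C-iPSCs and 10.6 times as deep in mESCs as in 4F-iPSCs. The second group had ratios of 11.6 and 8.39. In bins of 50 kb, the bin of the locus had ratios of 13.3 and 10.2, while the 14 other bins with compared CpGs at this end of the chromosome had ratios of C-iPSCs to 4F-iPSCs between 0.845 and 1.27. The uneven depth was therefore limited to the bin of the locus. Across the genome, relative C-iPSC depth was over 3 times 4F-iPSC depth at 36 of the chosen CpGs, or 9.25%, against 0.0859% of all compared CpGs, and 25 of the 36 were these CpGs. The opposite, 4F-iPSC depth over 3 times C-iPSC depth, was found at 23 of the chosen CpGs, or 5.91%, against 0.213% of all compared CpGs. All 32-base sequences of the longest group were unique in the reference, and what the depth means for the levels was not tested.

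**Figure D4:**
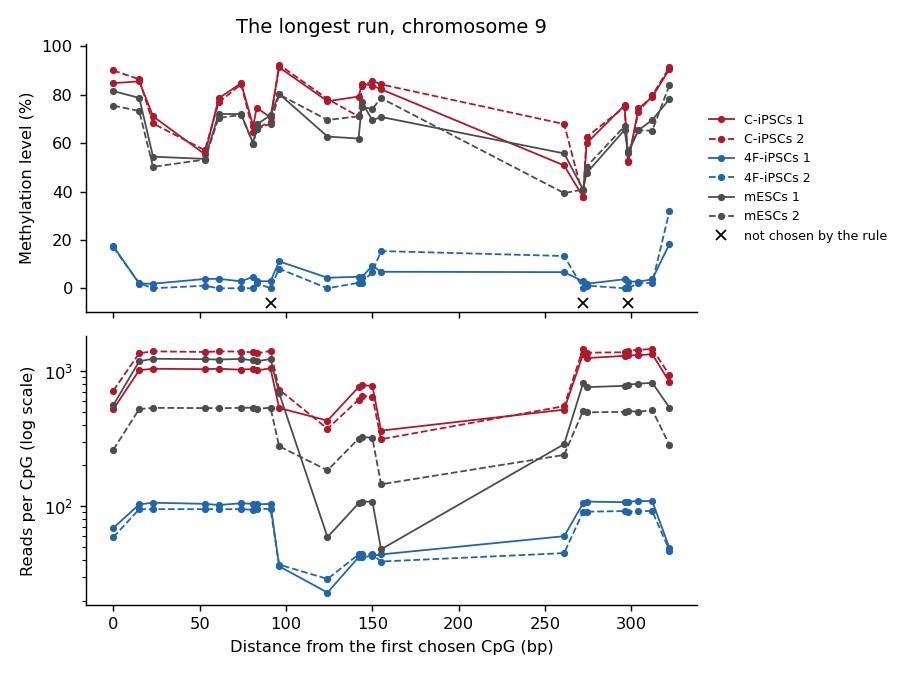
Methylation level (%, top) and reads per CpG (log scale, bottom) against the distance in bp from the first chosen CpG of the longest group on chromosome 9, with a line per library. Crosses mark compared CpGs that the rule did not take. The C-iPSC and mESC libraries stay together above the 4F-iPSC libraries in level, with group levels of 75.8% and 75.3% against 4.91% and 3.87%, and 1926 against 149 summed reads per CpG.

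Toward the same end of chromosome 9, a group of 7 lay at chr9:124441945-124442181, 9775 bp from the start of Gm47185. It was at 64.6% and 71.4% in C-iPSCs, 33.4% and 32.2% in the 4F-iPSCs, and 64.1% and 61.9% in mESCs. Here the depth was even, with 1.17 times as many relative reads in C-iPSCs as in 4F-iPSCs. A further 3 chosen CpGs followed at chr9:124442649-124442780, at 68.4% and 61.1% in C-iPSCs against 32.6% and 21.1% in 4F-iPSCs. The mESC libraries were at 51.9% and 68.0%, the first of them below both C-iPSC libraries. Relative depth there was 0.617 times as high in C-iPSCs as in 4F-iPSCs. In both groups the mESC mean was near that of C-iPSCs, and 4F-iPSCs were the lowest.

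Rest, which encodes a zinc finger repressor of neuronal genes, held 7 chosen CpGs within 79 bp of an exon, chr5:77268527-77268605, outside annotated UTRs and 2331 bp from the nearest start. They were at 42.5% and 50.7% in C-iPSCs, 6.91% and 11.9% in the 4F-iPSCs, and 38.1% and 41.2% in mESCs. C-iPSCs and mESCs lay close together here, and no library of either overlapped the 4F-iPSC libraries. For C-iPSCs, the rule itself brings about this separation. Between the chosen CpGs, 1 compared CpG was not taken, at 28.5% and 34.1% in C-iPSCs, 1.47% and 2.13% in the 4F-iPSCs, and 20.2% and 23.7% in mESCs. Outside the group, the 5 compared CpGs within 500 bp all lay before the first chosen one and averaged 10.0% in C-iPSCs, 8.46% in the 4F-iPSCs, and 9.61% in mESCs. At 1 of these 5, 67 bp away, C-iPSCs were at 26.4% and 34.6% and 4F-iPSCs at 12.1% and 20.5%. No CpG was compared within 500 bp beyond the last chosen one. Relative depth was 2.08 times as high in C-iPSCs and 3.10 times as high in mESCs as in 4F-iPSCs, and its part in the difference was not tested. By the reads in the cell type with the fewest, the 2 deepest of the chosen CpGs were in this exon. At chr5:77268527-77268528 the level was 40.5% of 622 reads in C-iPSCs (95% Wilson interval 36.7% to 44.4%), 3.54% of 395 reads in 4F-iPSCs (2.12% to 5.86%), and 32% of 750 reads in mESCs (28.8% to 35.4%). At chr5:77268539-77268540 it was 52.7%, 19.4%, and 47.6%.

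Prpf39 encodes a splicing factor of the U1 particle. Its promoter held 5 chosen CpGs, all those compared between chr12:65037051-65037179, and 3 more followed at chr12:65037678-65037765 in an intron. The promoter group was at 57.9% and 61.4% in C-iPSCs, 15.9% and 17.2% in the 4F-iPSCs, and 31.5% and 35.8% in mESCs. In the intron group the levels were 74.1% and 82.9%, 33.6% and 39.9%, and 45.8% and 53.8%. Both groups put mESCs between the iPSC types and nearer to 4F-iPSCs. Reads were even, with relative depth 1.07 and 1.20 times as high in C-iPSCs as in 4F-iPSCs. Over all 23 compared CpGs of the Prpf39 promoter, the mean level was 22.8% in C-iPSCs, 8.59% in the 4F-iPSCs, and 12.6% in mESCs.

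Efl1, a GTPase that acts in the maturation of the large ribosomal subunit, held 5 chosen CpGs within an intron, chr7:82771658-82771687. They were at 78.0% and 93.3% in C-iPSCs, 17.0% and 18.2% in the 4F-iPSCs, and 37.3% and 30.2% in mESCs. These values rest on a mean of 8.2 and 3.0 reads per CpG in the C-iPSC libraries, and relative depth in C-iPSCs was 0.0555 of that in 4F-iPSCs. At the first of them, 11 of 12 C-iPSC reads were methylated, with a 95% Wilson interval of 64.6% to 98.5%. Wiz, a zinc finger protein that works with the histone methyltransferases G9a and GLP, held 4 chosen CpGs at chr17:32367785-32367896, 3 of them in an exon. They were at 62.1% and 91.9% in C-iPSCs, 22.7% and 13.3% in the 4F-iPSCs, and 23.5% and 52.1% in mESCs. Replicates of C-iPSCs and of mESCs were nearly 30 percentage points apart, on a mean of 9.25 to 33 reads per CpG and library.

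The first 10 groups end with Wiz and Sh3tc2, which of the 6 groups with 4 chosen CpGs had the largest mean differences. The remaining groups of the 10 were in repeats for the most part. On chromosome 2, 10 chosen CpGs at chr2:98389527-98389896, 9 of them soft-masked, were at 59.8% and 64.6% in C-iPSCs, 30.7% and 21.5% in the 4F-iPSCs, and 47.9% and 51.1% in mESCs. Some of their 32-base sequences were found 85 times in the genome. At chr2:53367269-53367447, 5 soft-masked CpGs were at 45.8% and 53.7%, 15.0% and 15.9%, and 39.3% and 49.1%. An intron of Sh3tc2, a gene of Schwann cells, held 4 at chr18:61999938-62000091, at 45.4% and 62.8% in C-iPSCs, 15.6% and 13% in the 4F-iPSCs, and 41.2% and 53.7% in mESCs. All 3 put mESCs near C-iPSCs. In the other 15 groups, with 49 chosen CpGs, group means ran from 43.7% to 91.6% in C-iPSCs and from 4.81% to 53.4% in the 4F-iPSCs, and the C-iPSC libraries were both above the 4F-iPSC libraries in 14. The exception lay in soft-masked sequence at chr14:13116812-13116856, where C-iPSCs were at 78.7% and 28.6% and replicate 2 had a mean of 2.3 reads per CpG.

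**Figure D5:**
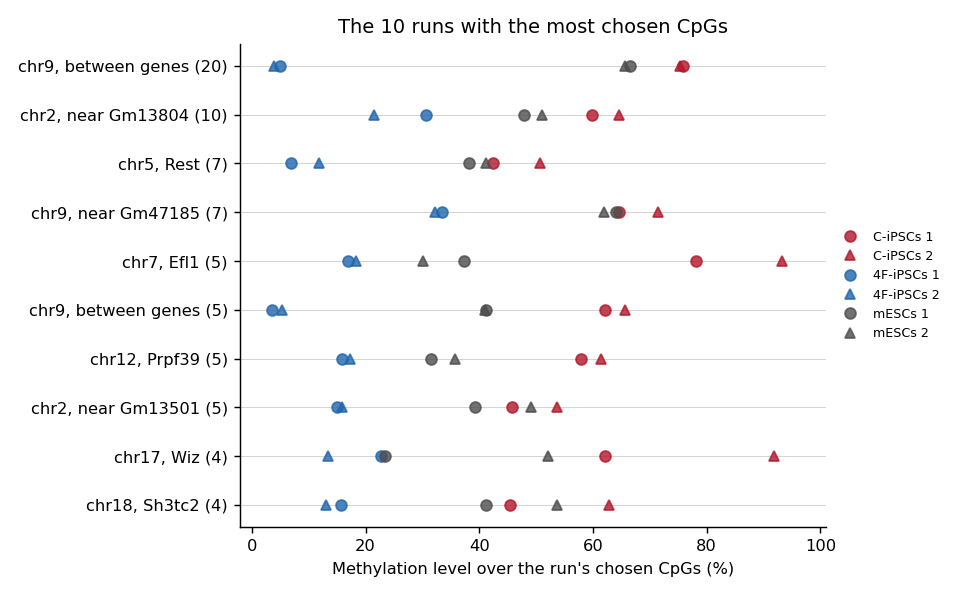
Methylation level (%) over the chosen CpGs of the 10 groups with the most of them (of the 6 groups with 4, the 2 with the larger mean differences), named by chromosome and by the gene that holds them or the nearest start (the longest and its neighbor by chromosome alone), with the number of chosen CpGs in brackets. Circles are replicates 1 and triangles replicates 2. In each of the 10 groups both C-iPSC libraries lie to the right of both 4F-iPSC libraries, from 75.8% and 75.3% against 4.91% and 3.87% in the longest to 45.4% and 62.8% against 15.6% and 13% in Sh3tc2.

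The next 3 CpGs by the reads in the cell type with the fewest belonged to 1 noncoding gene. Here 3 chosen CpGs of AC115789.4 on chromosome 18, starting at chr18:83524159-83524160, had at least 303 reads in every cell type. They were at 56.5%, 59.4%, and 58.5% in C-iPSCs, 18.8%, 27.1%, and 18.5% in the 4F-iPSCs, and 43.6%, 43.9%, and 48.5% in mESCs. At the first, the 2 C-iPSC libraries gave 53.0% and 59.2% and the 4F-iPSC libraries 22.7% and 14.1%.

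Chosen CpGs lay in the promoters of 46 of the 21547 genes with a compared promoter CpG, and 6 of these genes had at least 2. Prpf39 is described above. Gm8493, an unprocessed pseudogene, had 5, at 62.4% and 72.7% in C-iPSCs, 37.3% and 14.6% in the 4F-iPSCs, and 18.9% and 40.2% in mESCs, on 82 to 212 reads per library, where the replicates of 4F-iPSCs and mESCs differed widely. The processed pseudogene Gm18705 had 3, at 60.7% and 71.9%, 40.4% and 30.0%, and 49.8% and 50.7%, on 150 to 377 reads per library. Ppp1r2-ps3, another processed pseudogene, had 2, at 39.0% and 33.1%, 5.78% and 5.70%, and 20.7% and 36.1%, on 147 to 295. Thus 3 of the 6 were pseudogenes.

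The remaining genes code for proteins. Rgcc, a regulator of the cell cycle, had 2 of 32 compared promoter CpGs chosen, at 47.6% and 59.4% in C-iPSCs, 14.2% and 21.1% in the 4F-iPSCs, and 45.5% and 53.3% in mESCs, on 90 to 166 reads per library. Over its whole promoter the means were 15.5%, 6.03%, and 16.7%. Cyb5b is a cytochrome b5 of the outer mitochondrial membrane, and of the 6 genes it was the one where both other cell types were at or near 0%. Its 2 chosen CpGs of 56 were at 31.5% and 35.4% in C-iPSCs, at 0% in both 4F-iPSC libraries, and at 0% and 0.699% in mESCs. The 4F-iPSC reads, 221 and 225 at the 2 CpGs, allow a level of up to 1.36% and 1.33% by the limit of 3 reads, and the upper bounds of the 95% Wilson intervals are 1.71% and 1.68%. Both CpGs lay within 20 bp and shared most reads, and the promoter as a whole was at 5.37%, 2.95%, and 2.64%.

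Of 27282 genes with a compared CpG in the gene or promoter, 139 held a chosen CpG, or 0.509%, and 25 held at least 2. The next 4 genes were picked after their values were seen. Sox30, a transcription factor of sperm cell formation, held 3 in an intron at chr11:46014429-46014515, at 84.8% and 83.5% in C-iPSCs, 7.84% and 8.08% in the 4F-iPSCs, and 65.8% and 84.3% in mESCs. The last of the 3, with 196 C-iPSC reads, carries these values. The other two had 12 and 13 C-iPSC reads and 10 and 12 mESC reads, and their 32-base sequences were found 4 times in the genome. Ttc28, a protein with tetratricopeptide repeats, held 2 far apart. The first, chr5:111102157-111102158, was at 59.8% and 69.8% in C-iPSCs, 2.38% and 1.67% in the 4F-iPSCs, and 22.3% and 32.1% in mESCs, on at least 102 summed reads per cell type. The second, chr5:111150983-111150984, was at 56.3% and 53.1%, 2.08% and 0%, and 43.8% and 47.1%, on at least 90. At the first, mESCs were nearer to 4F-iPSCs, and at the second nearer to C-iPSCs. Fv1, a retroviral restriction gene derived from an endogenous retrovirus, had 1 chosen CpG in its promoter and 1 in its exon. In summed reads, these 2 CpGs were at 93.5% and 88.5% in C-iPSCs, 54.5% and 49.0% in the 4F-iPSCs, and 86.9% and 82.4% in mESCs, on at least 182 reads per cell type, so all 3 cell types were methylated there and 4F-iPSCs the least. Erbb4, a receptor tyrosine kinase of the EGF receptor family, had 2 in an intron, at 80.9% and 83.6% in C-iPSCs, 41.1% and 53.1% in the 4F-iPSCs, and 22.7% and 40.0% in mESCs. There, mESCs were below both iPSC types, on 22 and 30 mESC reads over both CpGs, and the 32-base sequences were found 46 and 58 times in the genome.

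Genes of the lists that bear on reprogramming were nearly absent. None of 58 imprinted genes with compared CpGs held a chosen CpG, nor did any of 28 pluripotency genes, 18 genes of extraembryonic endoderm, 28 fibroblast genes, 47 genes of lineage transcription factors, 25 genes of the DNA methylation machinery, or 25 targets of the small molecules. Of 33 germline genes, 1 did. Against 0.509% of all genes, these counts are too small to read as a shortage or an excess. The exception was Mei1, needed for meiotic recombination, with 1 chosen CpG in an intron at chr15:82121544-82121545. It was at 48.6% and 69.0% in C-iPSCs, 0% and 43.2% in the 4F-iPSCs, and 39.1% and 50% in mESCs, on between 26 and 46 reads per library. The 4F-iPSC replicates were 43.2 percentage points apart, so at this CpG the spread between replicates was as large as the difference between cell types, and the quasi-binomial model with Benjamini-Hochberg adjustment gave an adjusted p of 0.35.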

How the data were processed

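The RRBS data comprise 6 libraries, 2 for every cell type. The authors digested genomic DNA with MspI, selected fragments by size, aligned read pairs to mm10 with BSMAP (v2.90 in the submitters' processing notes), kept unique pairs, and ran MOABS. The authors deposited, per library and CpG, counts of all reads and of methylated reads, over both strands and per strand, without normalization or a minimum. The deposited fraction, methylated over all reads, was used only as a check of the counts. Libraries held 53694199 to 96534037 reads on CpGs, and Wilson intervals (95%) cover counting error only.

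Reads were summed per cell type and the rule was applied with Python 3.11.15. CpGs were placed with GENCODE M21 on GRCm38. Fisher's exact test, a Cochran-Mantel-Haenszel test and a quasi-binomial model (dispersion shrunken with limma 3.58.1) were run on all compared CpGs. On simulated data with 200 of 50000 CpGs differing by 0.4 between C-iPSCs and 4F-iPSCs, Fisher's exact test recovered 84% and the quasi-binomial model 78.5%. The simulated CpGs had at least 10 reads in each of the 4 iPSC libraries and no shift between replicates. At 85 chosen CpGs an iPSC library had under 5 reads, so these shares do not carry over to the shallow chosen CpGs. The chosen CpGs, the gene lists, and the tests were chosen with earlier results of these data known. Genes were named by rule: the 10 groups with the most chosen CpGs (ties by the larger mean difference), promoters with at least 2 (within 1 kb), the 5 CpGs with the most reads in the cell type with the fewest, and list genes that hold one. Sox30, Ttc28, Fv1, and Erbb4 were named outside this rule, after their values were seen. Alternatives changed minimum reads, the threshold, strands, the joining distance, the promoter width, and the libraries used. CpGs of the sex chromosomes were left out of the comparison. The sequence and position of the longest group are not reported here.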

Additional observations from a re-analysis of the deposited data

Results flagged for a closer look

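On the X chromosome, which the comparison left out, 18 of 31255 CpGs with the same reads met the rule, or 57.6 per 100000. The autosomes had 36.2 per 100000. Median levels at the 18 were 70.0% in C-iPSCs, 36.1% in 4F-iPSCs, and 41.1% in mESCs. On the Y chromosome, 6 of 1843 did, or 326 per 100000. The rates were not matched for depth, and most of the 18 X chromosome CpGs had under 20 reads in some cell type. On both chromosomes some of the CpGs were close neighbors, so they are not separate sites. These counts come from data outside the main comparison, were not tested, and have no control sample.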

How the results depend on the processing

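The rule took 233 CpGs with at least 20 reads and 201 with at least 30 in each cell type, in place of 389. It took 599 with the mean of the 2 library levels and 53 above a difference of 0.5. Leaving out each library in turn gave 265 to 1029 CpGs, 16 to 50 groups of at least 3 in place of 25, and 219 to 660 strong calls in place of 302. Without C-iPSC replicate 1 the counts were 1029, 50, and 660, and without C-iPSC replicate 2 they were 296, 16, and 219. The 265 CpGs were found without mESC replicate 1. The quasi-binomial model gave 155 strong calls. With the replicate block, a Cochran-Mantel-Haenszel test with the replicate number as stratum, there were 278. The labels tie no samples together by that number. Across 1014379 CpGs, the difference between replicates 1 and 2 in C-iPSCs had a Pearson correlation of 0.107 with that in 4F-iPSCs. With the difference in mESCs, the correlation was 0.0433 for C-iPSCs and -0.218 for 4F-iPSCs. The number was therefore not taken as a pairing. Of CpGs chosen by 1 replicate, the share higher in C-iPSCs in the other was 76.7%, 92.6% with at least 20 reads, and 43.3% when the replicates changed places. The causes of these changes were not tested. The share in promoters was 8.74% with 0.5 kb to each side of a start. Leaving out libraries moved it between 11.7% and 17.9%, and the soft-masked share between 33.3% and 45.8%. Depth limits the 156 chosen CpGs under 20 reads most.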
